A study of Mus musculus with 12 samples.

Results

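The genes described here are 42 genes of mitosis and of the transition from G2 into mitosis, taken by symbol from a list of genes for cyclin B-CDK1 control, mitotic kinases, the spindle checkpoint, centromeres and kinetochores, spindle motors, cytokinesis and chromosome structure. All 42 were present among the 28293 genes of the count table, and all 42 were among the 13775 genes with enough counts to be tested. They were compared between osteoclast precursor cells given RANKL and dexamethasone (RANKL+Dex, 6 libraries) and cells given RANKL alone (RANKL, 6 libraries). In both groups the cells were primary cells grown from bone marrow of wild-type male C57BL/6J mice aged 6 months, grown for 3 days with M-CSF, the growth factor of the macrophage lineage, at 10 ng/ml, and then exposed to 25 ng/ml RANKL, the cytokine that starts osteoclast formation, with 10 ng/ml M-CSF. RANKL+Dex cells also had 10 nM dexamethasone, a synthetic glucocorticoid, for 24 h, and RANKL cells had RANKL without it for 24 h. Every library carries a batch number in the labels, 1 to 6, and each number is shared by 1 library of each group. They call the libraries biological replicates but do not say whether each batch came from a separate mouse, so the p-values speak of the spread among these cultures alone.

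Dividing cells make most of these transcripts late in the cell cycle, when FOXM1 and the MuvB complex with B-MYB activate their promoters. In resting cells the DREAM complex, which shares the MuvB core, holds the same promoters down. Macrophage-lineage precursors divide in M-CSF, whereas the osteoclast that forms when they fuse is a multinucleated cell that no longer divides.

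With dexamethasone, 13 of the 42 genes fell (31.0%), against 11.1% of all tested genes, and none rose, against 10.6%. The genes that fell encode centralspindlin and its partner kinesin (Kif23, Racgap1, Kif20a), kinetochore and centromere proteins (Cenpa, Cenpe, Cenpf), spindle proteins (Kif2c, Kif4, Hmmr), the kinase Plk1, the phosphatase Cdc25b, the condensin subunit Ncapd2 and the proliferation marker Mki67. The falls were small: Kif23, at one end, fell by 22.7%, and Racgap1, at the other, fell by 11.9%. In a fit that left out the batch numbers, 2 of the 42 genes were lower (4.76%), against 7.55% of all tested genes. The B-type cyclins Ccnb1 and Ccnb2, their kinase Cdk1 and the anaphase activator Cdc20 had log2 fold changes between −0.02 and 0.04 and did not pass the test. The RNA came from whole cultures, so fewer dividing cells and less RNA per dividing cell cannot be told apart.

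Sequence shared by the promoters of these genes is shown for Mki67 and Ncapd2, which fell, and for Cdk1 and Ube2c, which did not pass the test, since all of them hold both motifs searched ahead of their start site. Each line gives the 250 bases before the annotated start, 5′ to 3′ on the gene's strand, from RefSeq on GRCm38.p6. Capitals mark matches of CCAAT, the box bound by NF-Y, and of TTTGAA, the cell cycle genes homology region bound by MuvB, on either strand, so that they also read ATTGG and TTCAAA. The windows lie at chr7:135716380-135716629 on the minus strand for Mki67, chr6:125191587-125191836 on the minus strand for Ncapd2, chr10:69352913-69353162 on the minus strand for Cdk1 and chr2:164769679-164769928 on the plus strand for Ube2c.
Mki67: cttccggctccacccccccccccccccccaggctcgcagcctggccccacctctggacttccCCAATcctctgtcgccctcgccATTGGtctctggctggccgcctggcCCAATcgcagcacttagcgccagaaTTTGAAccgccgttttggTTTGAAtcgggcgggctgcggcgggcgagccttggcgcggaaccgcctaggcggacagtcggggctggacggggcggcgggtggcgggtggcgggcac
Ncapd2: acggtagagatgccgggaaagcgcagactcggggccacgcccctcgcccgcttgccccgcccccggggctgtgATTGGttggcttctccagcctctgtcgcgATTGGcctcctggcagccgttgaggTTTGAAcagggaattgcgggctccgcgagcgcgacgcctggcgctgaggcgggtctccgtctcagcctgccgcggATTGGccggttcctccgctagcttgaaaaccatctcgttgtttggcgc
Cdk1: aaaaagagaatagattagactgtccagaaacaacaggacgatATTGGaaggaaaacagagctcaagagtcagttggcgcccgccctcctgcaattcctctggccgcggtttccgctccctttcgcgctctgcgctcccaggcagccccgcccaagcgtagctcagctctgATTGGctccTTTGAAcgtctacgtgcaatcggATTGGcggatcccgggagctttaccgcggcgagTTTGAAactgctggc
Ube2c: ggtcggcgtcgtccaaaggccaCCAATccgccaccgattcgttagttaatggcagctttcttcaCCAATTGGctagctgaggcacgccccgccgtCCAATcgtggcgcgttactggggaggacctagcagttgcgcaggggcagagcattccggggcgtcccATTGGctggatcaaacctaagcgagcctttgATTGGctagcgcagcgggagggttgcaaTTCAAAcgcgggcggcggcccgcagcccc
Mki67 held 3 matches of CCAAT and 2 of TTTGAA in this window, and Ncapd2 held 3 and 1. Cdk1 held 3 and 2, and Ube2c held 6 and 1, with CCAATTGG in Ube2c counted once on each strand.

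Promoter entries, from 250 bases before to 50 bases after the start, were found for 33 of the 42 genes. CCAAT was present in 26 of these 33 (78.8%), against 41.1% of the 27025 genes with an entry. TTTGAA was present in 25 (75.8%), against 20.2% of all genes, and both motifs were present in 22 (66.7%), against 7.97% of all genes. No match of one motif overlapped a match of the other. Among the genes that fell, 9 of 12 with an entry held both motifs, and among the genes that did not pass the test, 13 of 21 held both. In 22 genes a TTTGAA match began within 50 bases of the start site. These matches are letters in a window and say nothing of binding in these cells.

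**Figure D1:**
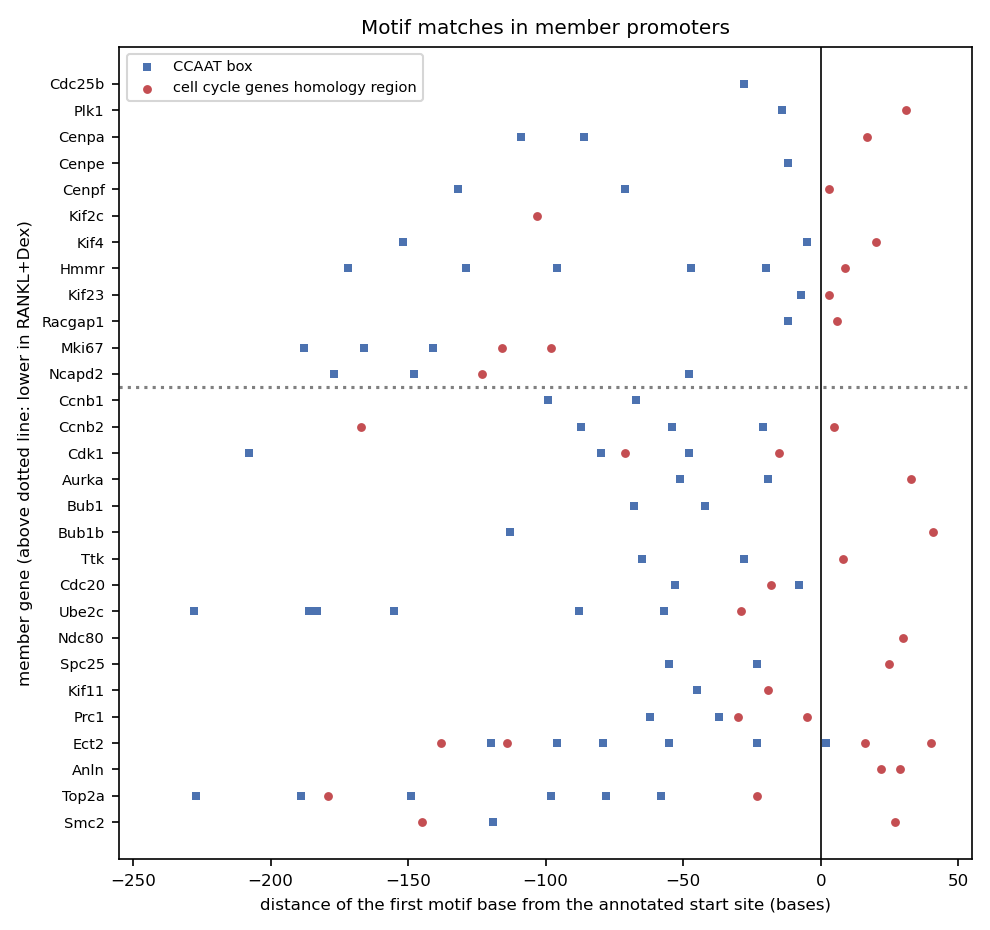
Positions of the first base of each motif match, in bases from the annotated start site (vertical line at 0), for the 29 genes with at least 1 match; squares are CCAAT boxes and circles are TTTGAA matches. The 12 genes above the dotted line fell with dexamethasone; 4 further genes with a promoter entry (Birc5, Mad2l1, Nuf2 and Nusap1) had neither motif, and Prc1 and Ect2 have 2 entries each, drawn on 1 line.

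Library totals ran from 16820193 to 28523595 counts in RANKL+Dex and from 17674405 to 25451498 counts in RANKL. Each of the 42 genes had between 39 and 3353 counts in a library. The glucocorticoid target Fkbp5, a co-chaperone of the receptor, averaged 41.6 ± 6.96 CPM (the count relative to the library total, scaled by edgeR's TMM factors) in RANKL+Dex and 15.2 ± 0.803 CPM in RANKL (SD, n = 6 each), and it was higher in RANKL+Dex in 6 of 6 batches (log2 fold change 1.45 ± 0.07 (SE), edgeR adjusted p = 2.84e-10). The 10 osteoclast markers were all present and took 4.92% to 5.25% of counts in RANKL+Dex and 4.83% to 5.09% in RANKL. The 9 macrophage and monocyte markers were also all present, at 0.565% to 0.869% of counts in RANKL+Dex and 0.583% to 0.868% in RANKL.

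The comparison used edgeR's quasi-likelihood test with batch as a block and Benjamini-Hochberg adjustment over all tested genes, with a threshold of 0.05 on the adjusted p. Among the 42 genes 13 were lower in RANKL+Dex (31.0%), against 11.1% of all tested genes. None of the 42 was higher by edgeR, against 10.6% of all tested genes. None was higher by DESeq2, against 1203 of 13775 genes, or at an unadjusted edgeR p under 0.05, against 2248 of 13775. The median log2 fold change was −0.09 over the 42 genes and −0.00 over all tested genes, and 36 of the 42 values were negative. The median of the 42 was −0.16 without batch 6 or either of its libraries and −0.06 without batch 1 or either of its libraries. All 13 genes that fell were lower in RANKL+Dex in at least 5 of 6 batches, and 7 of them in all 6. The test used the same batch pairs, so this agreement is partly built into the calls. Of all 42 genes, 18 were lower in at least 5 batches, and the same count was not made over all tested genes. None of the 42 had RANKL+Dex and RANKL levels that did not overlap, against 7.01% of all tested genes.

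Batch 5 was left out because its RANKL+Dex library stood out in Mki67 and Plk1. The fit without it is therefore no independent check of those genes. Without batch 5, 11 of the 42 genes were lower (26.2%), against 8.85% of all genes tested, and none was higher, against 7.88% (edgeR). All 11 were among the 13, and Cdc25b and Kif4 were the genes whose calls were lost. Without the batch block, 2 genes were lower (4.76%), against 7.55% of all tested genes, and none was higher, against 7.98%; these were Kif23 and Kif4. The count was 6 without batch 2 or without its RANKL library alone, 8 without its RANKL+Dex library, 8 without batch 3 or either of its libraries, 8 without batch 4 and 7 without either of its libraries. Over all tested genes, 1076 were lower without batch 2, 1203 without batch 3 and 1174 without batch 4, against 1535 with all batches. Kif23 was called in each of the 23 alternative settings, and Cenpf, Kif20a, Mki67 and Ncapd2 in 22 of the 23, the exception being the fit without the block.

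**Figure D2:**
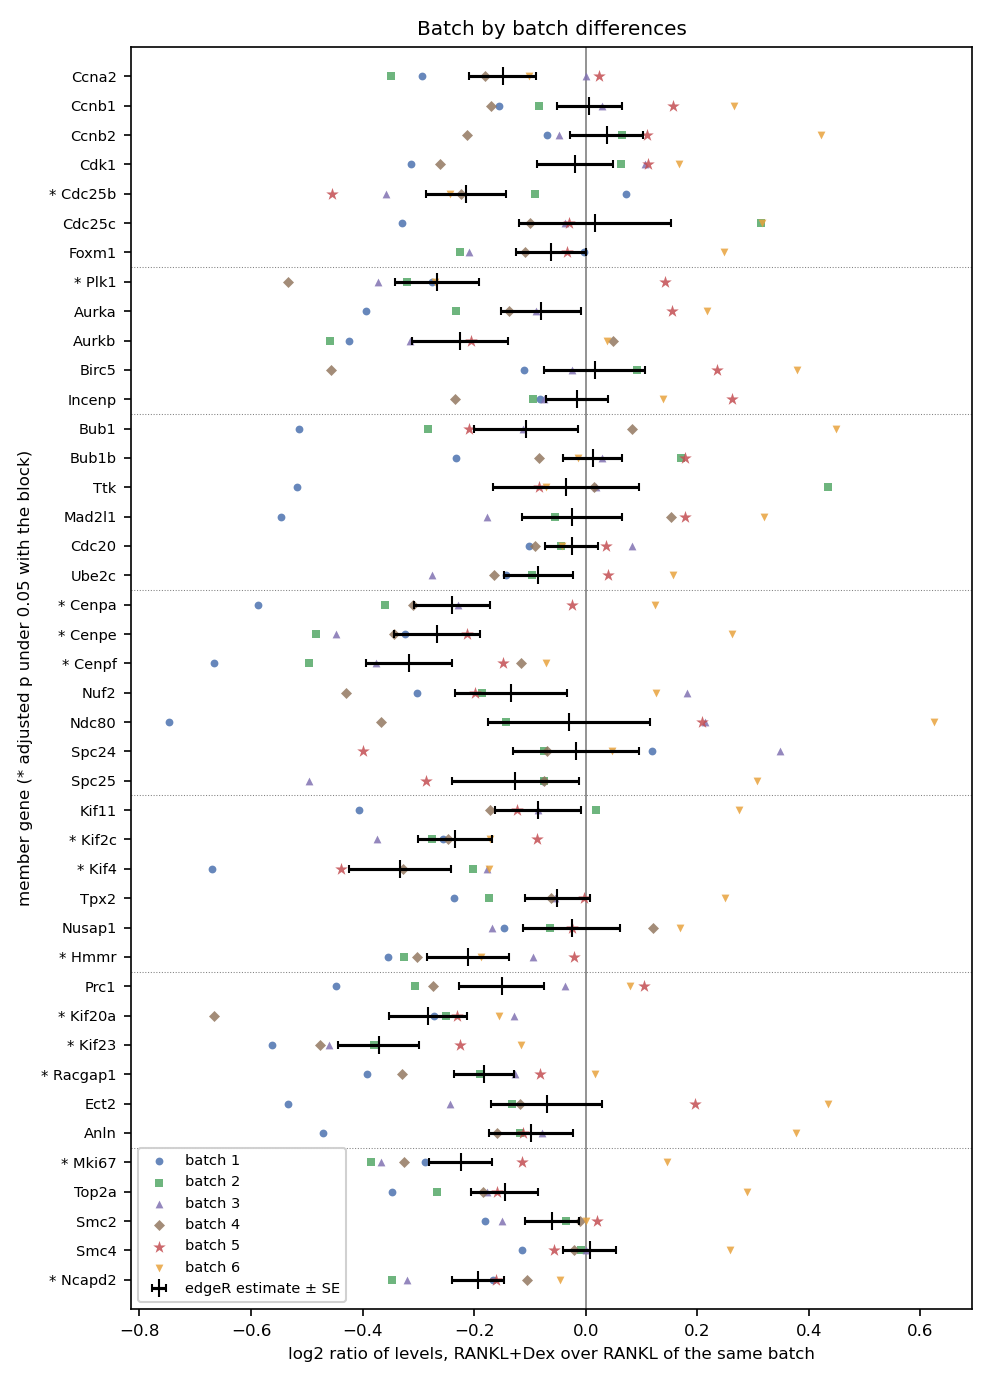
Log2 ratio of the level in RANKL+Dex over that in RANKL of the same batch (coloured symbols, 1 per batch) for each of the 42 genes, grouped by role, with edgeR's estimate and its SE in black; stars before a name mark the 13 genes past the threshold. The symbols of batch 6 lie to the right of 0 for most genes, and those of batches 1 to 4 mostly to the left.

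Of the 7 genes for cyclins, CDK1 and its activators, 1 fell (14.3%, near the 11.1% of all tested genes) and none rose (against 10.6%). Cdc25b, a phosphatase that activates CDK1, had a lowest, median and highest level of 12.7, 15.2 and 18.7 CPM in RANKL+Dex and of 15.1, 17.6 and 21.4 CPM in RANKL. The ranges overlapped, with lower levels in RANKL+Dex in 5 of 6 batches and the widest ratio in batch 5. Its log2 fold change was −0.21 ± 0.07 (edgeR adjusted p = 0.0408). This call was lost without batch 5 (log2 fold change −0.16 ± 0.08, edgeR adjusted p = 0.163), in DESeq2 (adjusted p = 0.0833) and without either library of batches 3 to 6 or the RANKL library of batch 2 (edgeR adjusted p between 0.0548 and 0.164, whole batches included).

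Cyclin B1 (Ccnb1, ENSMUSG00000041431, chr13:100915158-100923078 on GRCm39, minus strand), which brings CDK1 into mitosis, had levels of 22.8, 29.3 and 42.7 CPM (lowest, median and highest) in RANKL+Dex and 24.2, 30.6 and 38.3 CPM in RANKL. It was lower in RANKL+Dex in 3 batches and higher in 3, with a log2 fold change of 0.01 and a 95% interval from −0.12 to 0.13 (edgeR adjusted p = 0.957). Ccnb2, the other B-type cyclin, averaged 26.6 ± 3.26 CPM in RANKL+Dex and 25.9 ± 3.78 CPM in RANKL (SD, n = 6 each). Both cyclins showed no difference beyond the batch spread. Cdk1 itself averaged 21.8 ± 4.54 CPM in RANKL+Dex and 21.9 ± 3.23 CPM in RANKL, and the 95% interval of its log2 fold change ran from −0.16 to 0.13. Cyclin A2 (Ccna2), which acts with CDK1 and CDK2 before mitosis, had a median of 20.9 CPM in RANKL+Dex and 22.4 CPM in RANKL and missed the threshold (log2 fold change −0.15 ± 0.06, edgeR adjusted p = 0.0899). Foxm1, the transcription factor that drives many of these genes, showed a log2 difference of −0.06 between RANKL+Dex and RANKL (edgeR adjusted p = 0.537). Cdc25c, a second activating phosphatase, was a low-level gene at 2.97 ± 0.523 CPM in RANKL+Dex and 2.93 ± 0.563 CPM in RANKL, and its interval was wide, from −0.27 to 0.30.

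Of the 5 mitotic kinase and chromosomal passenger genes, 1 fell (20%, against 11.1% of all tested genes) and none rose (against 10.6%). Plk1 (ENSMUSG00000030867, chr7:121758662-121769096 on GRCm39, plus strand), the polo-like kinase needed from mitotic entry to cytokinesis, measured 15.5, 15.2, 15.3, 14.2, 24.2 and 14.1 CPM in RANKL+Dex batches 1 to 6, against 18.7, 19.0, 19.8, 20.5, 21.9 and 17.1 CPM in RANKL batches 1 to 6. Batch 5 alone was higher in RANKL+Dex, and it made the groups overlap, since the other RANKL+Dex libraries all lay below every RANKL library. Over all batches the log2 fold change was −0.27 ± 0.08 (edgeR adjusted p = 0.0173), and without batch 5 it was −0.35 ± 0.07 (edgeR adjusted p = 0.00209). Plk1 was among the genes that led to leaving out batch 5, so the second value is no independent support. The call was lost without batch 2, 3 or 4, without either library of batches 3 and 4, and without the RANKL library of batch 2 (edgeR adjusted p between 0.0555 and 0.0825).

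Aurkb, the kinase of the chromosomal passenger complex, had levels of 7.20, 8.56 and 12.7 CPM (lowest, median and highest) in RANKL+Dex and 8.59, 10.0 and 14.6 CPM in RANKL. Its log2 fold change of −0.23 ± 0.09 was as large as that of genes that fell, but it missed the threshold (edgeR adjusted p = 0.0719). The other passenger subunits did not follow it: Birc5 (survivin) had a log2 fold change of 0.02, with a 95% interval from −0.17 to 0.21, and Incenp, the scaffold, had one of −0.02, with an interval from −0.13 to 0.10. Whether Aurkb differed from them was not tested. Aurka, the kinase of spindle poles, averaged 21.3 ± 3.99 CPM in RANKL+Dex and 22.3 ± 2.06 CPM in RANKL (edgeR adjusted p = 0.477).

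None of the 6 spindle checkpoint and anaphase-promoting complex genes passed the edgeR test, the DESeq2 test or an unadjusted edgeR p of 0.05. Of all 13775 tested genes, 11.1% were called lower and 10.6% higher in edgeR at the adjusted threshold. DESeq2 called 1207 lower and 1203 higher. At an unadjusted edgeR p under 0.05, 2392 were lower and 2248 higher. Cdc20, which activates the anaphase-promoting complex, averaged 28.1 ± 4.09 CPM in RANKL+Dex and 28.5 ± 3.00 CPM in RANKL, and the 95% interval of its log2 fold change, from −0.12 to 0.08, was among the narrowest. Bub1b (BUBR1), a checkpoint protein that binds CDC20, averaged 37.1 ± 6.56 CPM in RANKL+Dex and 36.6 ± 3.08 CPM in RANKL. These levels were as close as those of the B-type cyclins. Ube2c, the ubiquitin-conjugating enzyme of the complex, had medians of 19.5 CPM in RANKL+Dex and 21.8 CPM in RANKL, with a log2 fold change of −0.09 ± 0.06. The checkpoint kinase Bub1 had a log2 fold change of −0.11 ± 0.09, the checkpoint protein Mad2l1 one of −0.02 ± 0.09, and the checkpoint kinase Ttk, at 3.599 ± 0.955 CPM in RANKL+Dex and 3.69 ± 1.01 CPM in RANKL, one of −0.04 ± 0.13.

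Of the 7 centromere and kinetochore genes, 3 fell (42.9%, against 11.1% of all tested genes) and none rose (against 10.6%). Cenpf (chr1:189372803-189420283 on GRCm39, minus strand), a large protein of the outer kinetochore, had levels of 11.97, 15.1 and 21.0 CPM (lowest, median and highest) in RANKL+Dex and 13.8, 19.6 and 23.2 CPM in RANKL. It was lower in RANKL+Dex in 6 of 6 batches, although the ranges overlapped. Its log2 fold change was −0.32 ± 0.08 (edgeR adjusted p = 0.00690), and −0.35 ± 0.09 without batch 5 (edgeR adjusted p = 0.0107). Without the block its edgeR adjusted p was 0.109.

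Cenpe, the kinetochore motor that moves chromosomes to the spindle equator, had levels of 18.1, 18.4 and 25.8 CPM (lowest, median and highest) in RANKL+Dex and 18.2, 24.1 and 29.9 CPM in RANKL. Cenpa, the histone H3 variant of centromeres, had levels of 27.6, 33.2 and 35.5 CPM in RANKL+Dex and 27.4, 40.3 and 42.4 CPM in RANKL. Both overlapped between groups and were lower in RANKL+Dex in 5 of 6 batches, batch 6 being the other one. The log2 fold changes were −0.27 ± 0.08 for Cenpe (edgeR adjusted p = 0.0197) and −0.24 ± 0.07 for Cenpa (edgeR adjusted p = 0.0180), and both calls held without batch 5 (edgeR adjusted p = 0.0456 and 0.0153). Cenpe lost its call without batch 2, 3 or 4 or any 1 of their libraries (edgeR adjusted p between 0.0685 and 0.0920), and Cenpa without batch 2 or 4 or any 1 of their libraries (between 0.0676 and 0.0757).

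The NDC80 complex, which attaches kinetochores to microtubules, showed no call in any of its 4 genes. The log2 fold changes were −0.03 ± 0.15 for Ndc80, −0.13 ± 0.10 for Nuf2, −0.02 ± 0.11 for Spc24 and −0.13 ± 0.11 for Spc25. All of them were low, with Ndc80 at 4.498 ± 1.35 CPM in RANKL+Dex and 4.51 ± 0.894 CPM in RANKL and Nuf2 at 6.24 ± 0.890 CPM in RANKL+Dex and 6.85 ± 0.993 CPM in RANKL. At these levels the 95% interval for Ndc80 ran from −0.34 to 0.28, so a fall of the size seen in Cenpf was not excluded for it.

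Of the 6 spindle motor and microtubule genes, 3 fell (50%, against 11.1% of all tested genes) and none rose (against 10.6%). Kif2c, a kinesin that takes microtubules apart at centromeres, had levels of 10.1, 12.02 and 16.9 CPM (lowest, median and highest) in RANKL+Dex and 12.1, 14.5 and 18.0 CPM in RANKL. Kif4, a chromosome-bound kinesin, had levels of 5.62, 6.45 and 7.52 CPM in RANKL+Dex and 6.87, 8.09 and 10.2 CPM in RANKL. Hmmr, a spindle-assembly protein, had levels of 9.71, 9.89 and 15.8 CPM in RANKL+Dex and 10.5, 12.3 and 16.0 CPM in RANKL. All of them were lower in RANKL+Dex in 6 of 6 batches, with overlapping ranges, and the high RANKL+Dex value of Hmmr was the library of batch 5.

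The log2 fold changes were −0.23 ± 0.07 for Kif2c (edgeR adjusted p = 0.0174), −0.33 ± 0.09 for Kif4 (0.0145) and −0.21 ± 0.07 for Hmmr (0.0477). Without batch 5, Kif2c and Hmmr stayed past the threshold (edgeR adjusted p = 0.0221 and 0.0433) and Kif4 did not (log2 fold change −0.31 ± 0.10, edgeR adjusted p = 0.0523). Kif4 also lost its call without the RANKL library of batch 1 or either library of batch 5 (edgeR adjusted p between 0.0510 and 0.0523), and Kif2c without batch 2 or 3 or any 1 of their libraries (between 0.0515 and 0.0724). Hmmr was the least stable call, lost without any batch or library other than those of batch 5 (edgeR adjusted p between 0.0586 and 0.149), and in DESeq2 Kif2c (adjusted p = 0.0533) and Hmmr (adjusted p = 0.131) also missed. The other spindle genes did not pass: Kif11, the motor that separates spindle poles, had a log2 fold change of −0.09 ± 0.08, Tpx2, which activates Aurora A on the spindle, one of −0.05 ± 0.06, and the microtubule-binding Nusap1 one of −0.03 ± 0.09.

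Of the 6 genes of the central spindle and cytokinesis, 3 fell (50%, against 11.1% of all tested genes) and none rose (against 10.6%). Kif23 (ENSMUSG00000032254, chr9:61823187-61854056 on GRCm39, minus strand), the kinesin of centralspindlin, measured 10.3, 11.1, 11.1, 10.4, 14.7 and 12.8 CPM in RANKL+Dex batches 1 to 6, against 15.2, 14.4, 15.3, 14.5, 17.2 and 13.9 CPM in RANKL batches 1 to 6. Only the RANKL+Dex library of batch 5 reached into the RANKL range, and within each batch RANKL+Dex was lower. The log2 fold change was −0.37 ± 0.07 (edgeR adjusted p = 0.00137), −0.40 ± 0.08 without batch 5 (edgeR adjusted p = 0.00289), and the edgeR adjusted p without the block was 0.00936.

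Racgap1, the partner of Kif23 in centralspindlin, had levels of 23.4, 29.8 and 38.6 CPM (lowest, median and highest) in RANKL+Dex and 29.3, 32.9 and 40.9 CPM in RANKL. Kif20a, a kinesin that carries the passenger complex to the midzone, had levels of 13.9, 16.4 and 20.6 CPM in RANKL+Dex and 18.0, 18.9 and 24.2 CPM in RANKL. Both ranges overlapped, with Kif20a lower in RANKL+Dex in 6 batches and Racgap1 in 5. The log2 fold changes were −0.18 ± 0.05 for Racgap1 (edgeR adjusted p = 0.0221) and −0.28 ± 0.07 for Kif20a (0.00771), and both held without batch 5 (edgeR adjusted p = 0.0330 and 0.0206). Racgap1 lost its call without batch 2 or 4 or any 1 of their libraries, and without either library of batch 1 alone (edgeR adjusted p between 0.0529 and 0.0922). Prc1, which bundles midzone microtubules, had a log2 fold change of −0.15 ± 0.08, Ect2, which acts at the division plane, one of −0.07 ± 0.10, and the contractile-ring scaffold Anln one of −0.10 ± 0.07, none of them past the threshold.

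Of the 5 chromosome structure genes, 2 fell (40%, against 11.1% of all tested genes) and none rose (against 10.6%). Mki67 (ENSMUSG00000031004, chr7:135291513-135318090 on GRCm39, minus strand) encodes Ki-67, the coat protein of mitotic chromosomes used to count cycling cells. It measured 96.4, 92.5, 92.5, 95.8, 141 and 109 CPM in RANKL+Dex batches 1 to 6, against 118, 121, 119, 120, 153 and 98.7 CPM in RANKL batches 1 to 6. Batches 1 to 4 were close to each other within each group, batch 5 was high in both groups, and batch 6 was the batch with the higher value in RANKL+Dex. The log2 fold change was −0.22 ± 0.06 (edgeR adjusted p = 0.00814), and −0.25 ± 0.06 without batch 5 (edgeR adjusted p = 0.0127). Without the block its edgeR adjusted p was 0.171.

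Ncapd2 (chr6:125144970-125168664 on GRCm39, minus strand), a subunit of condensin I, had levels of 32.2, 37.0 and 48.5 CPM (lowest, median and highest) in RANKL+Dex and 38.3, 41.2 and 54.2 CPM in RANKL. It was lower in RANKL+Dex in 6 of 6 batches, with overlapping ranges, and its log2 difference from RANKL was −0.19 ± 0.05 (edgeR adjusted p = 0.00678), and −0.20 ± 0.05 without batch 5 (edgeR adjusted p = 0.0190). The condensin core subunits did not pass the test: Smc4 averaged 44.6 ± 1.94 CPM in RANKL+Dex and 44.4 ± 3.67 CPM in RANKL, and Smc2 had a log2 fold change of −0.06 ± 0.05. Top2a, the topoisomerase that untangles sister chromatids, had medians of 50.4 CPM in RANKL+Dex and 56.5 CPM in RANKL and missed the threshold (log2 fold change −0.15 ± 0.06, edgeR adjusted p = 0.0984).

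**Figure D3:**
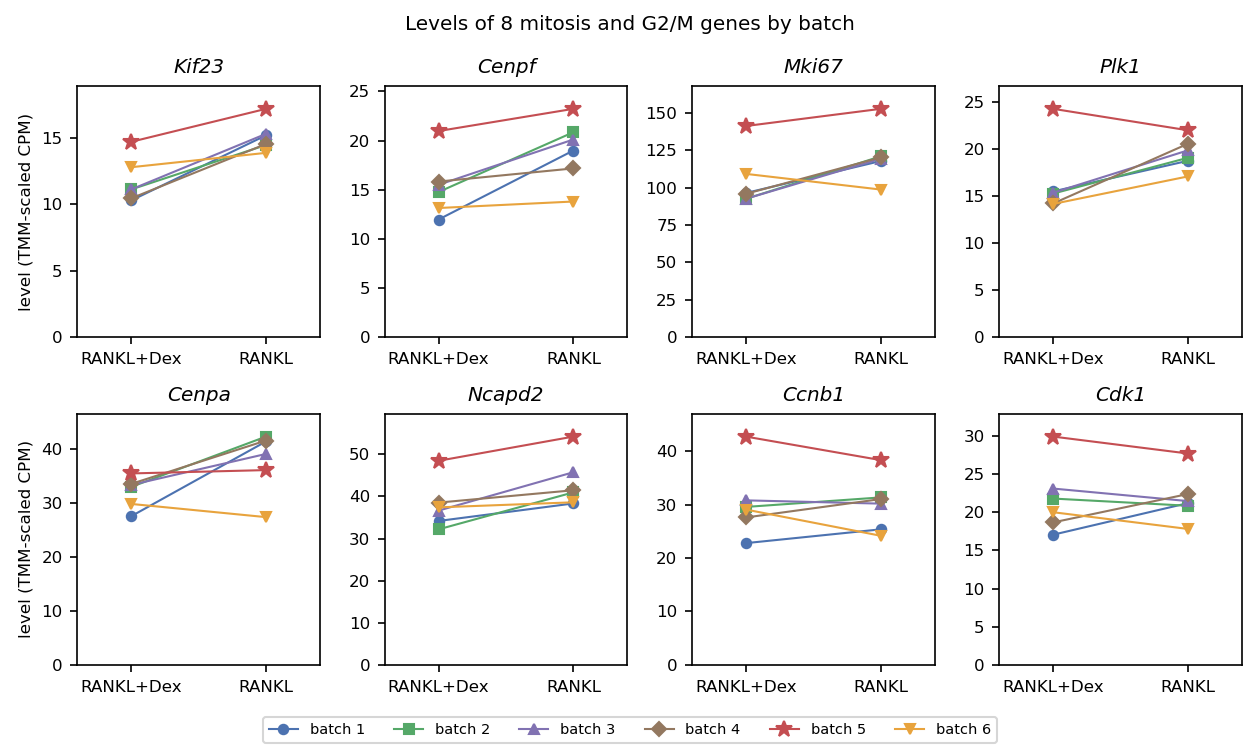
Levels of 8 of the genes in TMM-scaled CPM (vertical axes from 0), RANKL+Dex on the left and RANKL on the right of each panel, with 1 line per batch. Kif23, Cenpf and Ncapd2 were lower in RANKL+Dex in every batch, Mki67 and Cenpa in 5, with batch 6 (orange) as the exception, and Plk1 in 5, with batch 5 (red) as the exception; the lines of Ccnb1 and Cdk1 cross.

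Levels were divided by exon length, the union of all annotated exons of a gene, so the ranking depends on the annotation. Ccnb2 was the highest of the 42, at 17.4 CPM per kb in RANKL+Dex and 16.9 CPM per kb in RANKL. Cdc20 followed, at 15 CPM per kb in RANKL+Dex and 15.3 in RANKL, and then Mki67, at 10.4 in RANKL+Dex and 12.1 in RANKL. At the other end lay Cdc25c, at 0.605 CPM per kb in RANKL+Dex and 0.596 in RANKL, and Ndc80, at 0.693 in RANKL+Dex and 0.694 in RANKL. The genes that fell were spread over this range of levels, with Cenpf at 0.995 CPM per kb in RANKL+Dex and 1.23 in RANKL and Plk1 at 7.47 in RANKL+Dex and 8.88 in RANKL.

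Levels of these genes also differed between batches. The summed level of the 42 genes was 776.8, 872.4, 874.7, 847.3, 1163 and 889.2 CPM in RANKL+Dex batches 1 to 6, against 942.5, 992.9, 976.9, 973.7, 1189 and 813.3 CPM in RANKL batches 1 to 6. Batch 5 was the highest in both groups, and the batch 6 sum was higher in RANKL+Dex than in RANKL, unlike in the other batches. The library of batch 5 was the highest of its group for 40 of the 42 genes in RANKL+Dex and for 39 of 42 in RANKL, against 20.3% of all tested genes in RANKL+Dex and 19.2% in RANKL. The number of the 42 genes with a lower level in RANKL+Dex was 40, 35, 32, 37, 26 and 13 in batches 1 to 6, and the median log2 ratio was −0.30, −0.16, −0.12, −0.17, −0.03 and 0.14. Of all tested genes, 49.3% (batch 2) to 51.8% (batch 1) were lower in RANKL+Dex within a batch, and the median log2 ratio of all genes stayed between −0.01 and 0.00.

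A test of differences between batches, in the same edgeR fit, called 17 of the 42 genes (40.5%), against 6.01% of all tested genes. Among the other lists described below, it called 13 of 30 S-phase genes (43.3%) and 14 of 78 other G2/M genes (17.9%). It called 6 of 9 macrophage and monocyte markers (66.7%), 1 of 10 osteoclast markers (10%) and 2 of 20 DREAM, MuvB, E2F and NF-Y genes (10%). Ccnb1 had the smallest p of the 42 (edgeR adjusted p = 0.00150), with 42.7 CPM in RANKL+Dex batch 5 and at most 30.8 CPM in the other RANKL+Dex libraries, and with 38.3 CPM in RANKL batch 5 and at most 31.3 CPM in the other RANKL libraries. Top2a (edgeR adjusted p = 0.00304) and Ncapd2 (edgeR adjusted p = 0.00318) came next. Without batch 5 none of the 42 was called in edgeR, against 299 of the 13790 genes tested. Of the 42, 5 had an unadjusted edgeR p under 0.05. The osteoclast markers and the macrophage markers had their lowest share of counts in batch 5 in both groups, at 4.92% of counts in RANKL+Dex and 4.83% in RANKL for osteoclast markers and at 0.565% in RANKL+Dex and 0.583% in RANKL for macrophage markers, and their part in the level of the 42 genes was not tested.

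**Figure D4:**
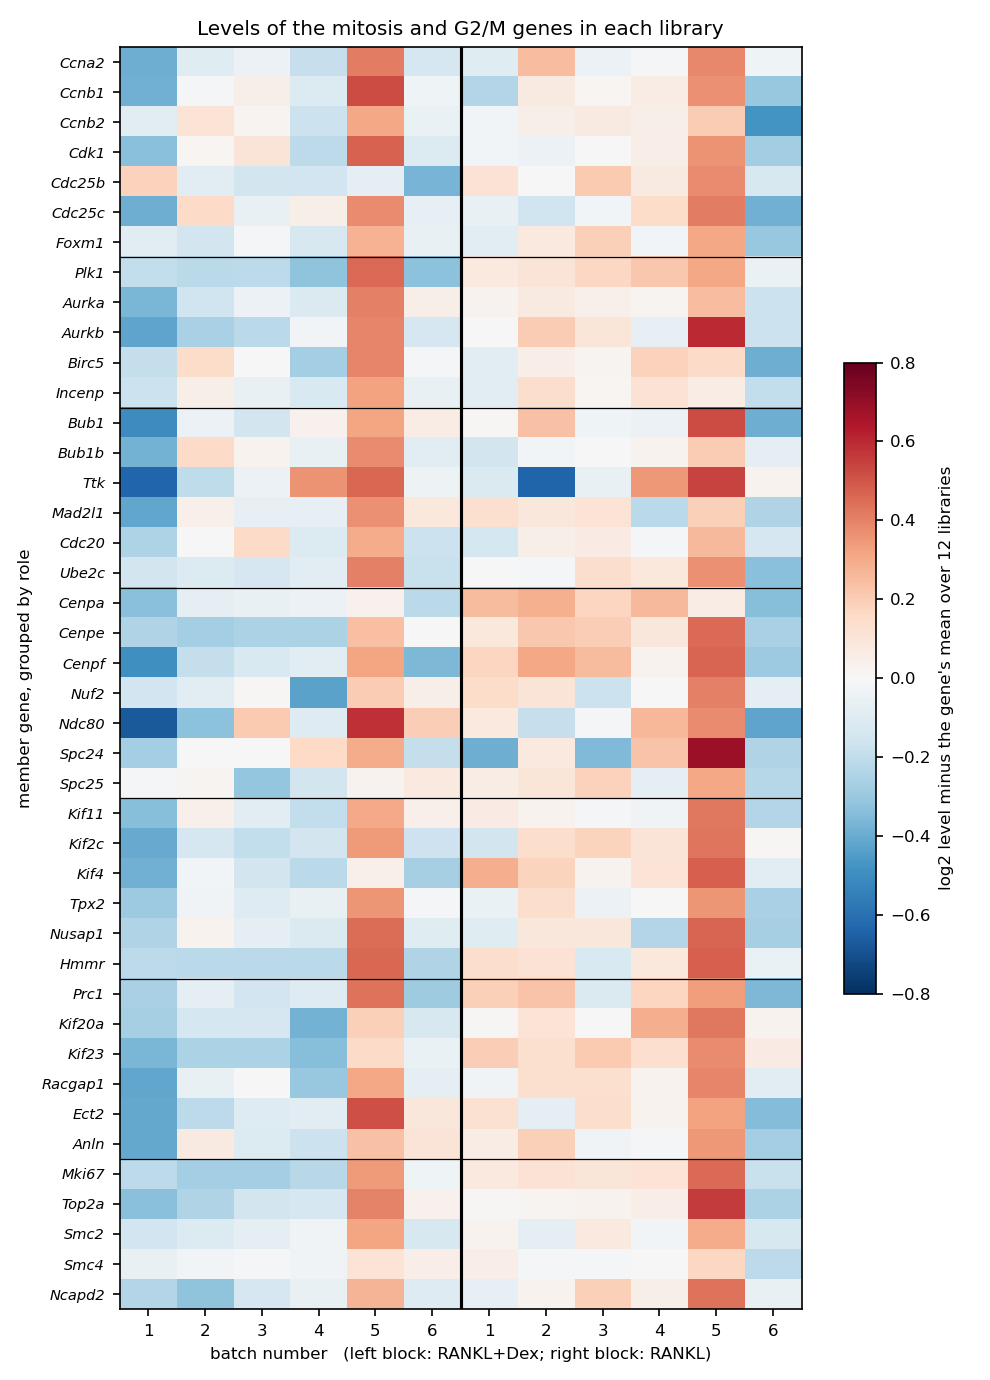
Level of each of the 42 genes in each library, as log2 CPM minus the gene's mean over the 12 libraries (red above, blue below), with RANKL+Dex batches 1 to 6 left of the thick line and RANKL batches 1 to 6 right of it; thin lines separate roles. The column of batch 5 is red in both blocks, the column of batch 1 is blue in RANKL+Dex, and that of batch 6 is mostly blue in RANKL.

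**Figure D5:**
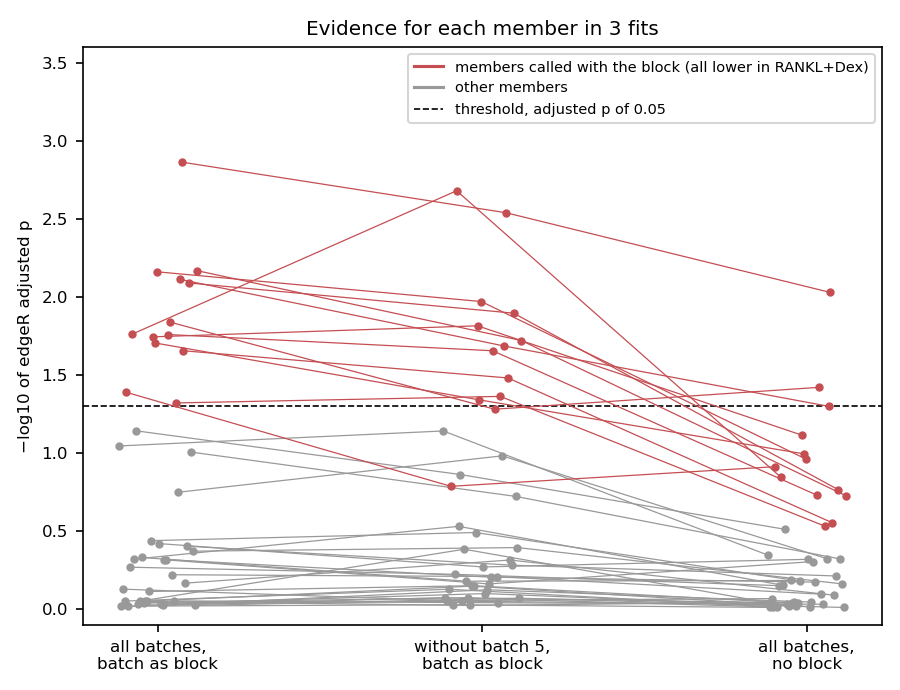
The −log10 of the edgeR adjusted p of each of the 42 genes in 3 fits, with all batches and the block, without batch 5, and with all batches and no block; the dashed line is the threshold of 0.05 and red lines are the 13 genes called in the first fit. Of these, 11 stay above the line without batch 5 and 2 without the block.

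Other genes of the G2/M programme were examined in the same fit, from a list of 78 tested genes: 8 were lower in RANKL+Dex (10.3%), close to the 11.1% of all tested genes, 2 were higher (2.56%), against 10.6% of all, and 68 passed in neither direction, with a median log2 fold change of −0.08. DESeq2 called 6 lower and 2 higher. Cit, the citron kinase of the midbody, averaged 6.81 ± 2.16 CPM in RANKL+Dex and 9.55 ± 1.72 CPM in RANKL and fell by 0.51 on the log2 scale (edgeR adjusted p = 0.000413). Iqgap3, a cytoskeletal scaffold, and Aspm, a spindle-pole protein, also fell (log2 differences from RANKL of −0.31 and −0.32, edgeR adjusted p = 0.00415 and 0.00879). The genes that rose were Wee1, the kinase that holds CDK1 inactive (log2 fold change 0.26 ± 0.06, edgeR adjusted p = 0.00493), and Zwint, a kinetochore scaffold (0.14 ± 0.04, edgeR adjusted p = 0.0109). Wee1 was higher in RANKL+Dex in 6 of 6 batches, at 20.6 ± 2.54 CPM in RANKL+Dex and 17.2 ± 1.79 CPM in RANKL.

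Among 20 tested genes of the DREAM and MuvB complexes, E2F factors and NF-Y, 3 were lower (15%, against 11.1% of all tested genes) and 1 was higher (5%, against 10.6%). E2f2, an activating E2F, averaged 5.38 ± 0.901 CPM in RANKL+Dex and 7.45 ± 0.362 CPM in RANKL (log2 fold change −0.48 ± 0.11, edgeR adjusted p = 0.00311). Nfya, the NF-Y subunit that reads CCAAT (−0.18 ± 0.04, edgeR adjusted p = 0.00565), and Mybl1, a MYB-family factor (−0.32 ± 0.11, edgeR adjusted p = 0.0464), were the others lower, and Mybl1, lower in 4 of 6 batches, was not called without batch 5 (edgeR adjusted p = 0.125) or in DESeq2 (adjusted p = 0.0844), which called 2 genes of the list lower. Mybl2, which encodes B-MYB, was, unlike these, higher in RANKL+Dex in 6 of 6 batches (13.8 ± 3.97 CPM in RANKL+Dex and 11.1 ± 3.35 CPM in RANKL, log2 fold change 0.31 ± 0.07, edgeR adjusted p = 0.00450).

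Among 30 S-phase genes, 4 were higher in RANKL+Dex by edgeR (13.3%, against 10.6% of all tested genes) and 2 by DESeq2. None was lower by either tool, against 11.1% of all tested genes lower by edgeR, with 1 lower at an unadjusted edgeR p under 0.05. Rrm2, the small subunit of ribonucleotide reductase, averaged 25.4 ± 6.04 CPM in RANKL+Dex and 17.6 ± 4.75 CPM in RANKL and was higher in RANKL+Dex in 6 of 6 batches (log2 fold change 0.52 ± 0.06, edgeR adjusted p = 1.33e-05). Chaf1b, a chromatin assembly subunit (0.13 ± 0.04, edgeR adjusted p = 0.0172), and Ccne1, cyclin E1 (0.26 ± 0.08, edgeR adjusted p = 0.0213), were higher too, and Ccne1 was not called without batch 5 (edgeR adjusted p = 0.0840) or in DESeq2 (adjusted p = 0.0654). Thymidine kinase Tk1 had a log2 fold change of −0.17 ± 0.06 and missed the threshold (edgeR adjusted p = 0.0627). Batch 5 was also the highest for most S-phase genes, 21 of 30 in RANKL+Dex and 24 of 30 in RANKL.

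Among 14 genes for D-type cyclins, their kinases and CDK inhibitors, 3 were higher (21.4%, against 10.6% of all tested genes) and 2 lower (14.3%, against 11.1%). The inhibitor Cdkn1a (p21) averaged 68.2 ± 8.45 CPM in RANKL+Dex and 50.03 ± 3.74 CPM in RANKL, and its log2 difference between RANKL+Dex and RANKL was 0.44 ± 0.05 (edgeR adjusted p = 3.36e-06). Cdkn1b (p27) and cyclin D3 (Ccnd3) were higher as well (log2 fold changes 0.23 and 0.24, edgeR adjusted p = 0.00489 and 0.00558). Cyclin D1 (Ccnd1) averaged 22.4 ± 4.44 CPM in RANKL+Dex and 29.3 ± 5.59 CPM in RANKL (log2 fold change −0.38 ± 0.05, edgeR adjusted p = 3.48e-05), and Cdkn1c (p57), a gene near 1 to 2 CPM, was lower at −0.71 ± 0.21 (edgeR adjusted p = 0.0193) but missed the threshold in DESeq2 (adjusted p = 0.0533). Cdkn1a, Cdkn1b and Ccnd3 were higher, and Ccnd1 and Cdkn1c lower, in RANKL+Dex in 6 of 6 batches. Without the block, 2 genes were lower and 1 higher among the other G2/M genes, 1 lower and 0 higher among the DREAM, MuvB, E2F and NF-Y genes, 0 lower and 3 higher among the S-phase genes, and 1 lower and 1 higher here. Without batch 5, the counts were 7 lower and 2 higher, 2 lower and 1 higher, 0 lower and 2 higher, and 2 lower and 4 higher for the same lists in that order. Of all tested genes, 7.55% were lower and 7.98% higher without the block. Without batch 5 these shares were 8.85% and 7.88%.

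Markers of other marrow cells were present at low levels. The 5 granulocyte precursor markers took 2.45e-05% to 0.000101% of counts in RANKL+Dex and 0.000328% to 0.000542% in RANKL, and Mpo, the most abundant of them, averaged 0.253 CPM in RANKL+Dex and 2.07 CPM in RANKL. Of the 9 neutrophil markers 8 were in the table, without Ly6g, and they took 0.00197% to 0.00312% of counts in RANKL+Dex and 0.00403% to 0.00788% in RANKL. Both shares were lower in RANKL+Dex in 6 of 6 batches, and the osteoclast marker share was higher in 6 of 6 (median 5.21% in RANKL+Dex and 4.94% in RANKL). The share of mast cell and basophil markers was also higher in RANKL+Dex in 6 of 6 batches, and those of T and NK cell, stem and progenitor, and endothelial markers were lower in 6 of 6. Of the 8 T and NK cell markers, 5 (Cd3e, Cd3g, Cd8a, Ncr1 and Gzma) were at 0 or not in the table. Trac made up most of that share, at a mean of 2.74 CPM in RANKL+Dex and 3.67 CPM in RANKL. In an exact two-sided permutation test that swaps the groups within batches, the 7 lists with 1 direction in all 6 batches had p = 0.0312. This is the smallest p that 6 batches allow, and it was 0.0579 after Benjamini-Hochberg adjustment over 13 marker lists. At this floor at least 9 lists would have had to reach it for any to pass, so this adjusted test says nothing about how stable the 7 differences are. Tested gene by gene in edgeR, 6 of 6 neutrophil markers and 2 of 2 granulocyte precursor markers with enough counts were lower in RANKL+Dex, with median log2 fold changes of −1.84 and −2.88. All 3 tested endothelial markers were also lower. Of the 10 osteoclast markers 5 were higher and 1 lower, and of the 9 macrophage and monocyte markers 1 was higher and 5 lower. Mmp9, the most abundant osteoclast marker, averaged 22200 CPM in RANKL+Dex and 23100 CPM in RANKL. Of 4 tested megakaryocyte markers and of 5 tested stromal and osteoblast markers, 1 was higher and 2 lower in each list. The part of these cells in the levels of the 42 genes was not tested.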

How the data were processed

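RNA was poly(A)-selected and sequenced with a NEBNext Ultra kit, per the labels' protocols, which state no strand marking, so reads of overlapping, antisense or near-identical genes cannot be told apart. The authors deposited unnormalized counts of reads for each gene. The submitters' processing notes name HISAT2 2.1.0, FastQC 0.11.5, DESeq 1.28.0, StringTie 1.3.3b and the GRCm39 build, without roles, and which program counted reads was not given in the sources used here. The 42 genes and all other lists were chosen with earlier results of these data known.

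Counts were tested with edgeR 4.0.16 in R 4.3.3 (TMM scaling, at least 10 counts by filterByExpr and 15 in total, quasi-likelihood test, batch and group as terms). In other lists, up to 3 genes in each direction with the smallest p are named. The batch number in the labels pairs the libraries; deviations of same-numbered libraries correlated by 0.0519 to 0.466 (mean 0.207), under 0.1 in batches 3, 4 and 6, against a mean of −0.0413 for different numbers, and both libraries matched their own number best in 3 of 6 batches. Chi-square per gene between libraries of a group was 3.2 to 19.5, so no library was a copy of another. Alternatives were DESeq2 1.42.0, its size factors, no filter, a filter of 1 CPM in 6 libraries, no block, and leaving out each library or batch; 3 alternatives for the fit without batch 5 were chosen after seeing the data. Exon lengths, each the union of all annotated exons of a gene, came from GENCODE M21 (GRCm38). Scripts were tested on simulated data. Intervals are 95% and cover the spread between these cultures.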

Additional observations from a re-analysis of the deposited data

Results flagged for a closer look

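Each group of 6 libraries was examined for a library that stood apart, over 166 groups of values (the 42 genes, the other named genes, the marker lists and the summed level), and 20 were flagged. Chance flags about 1 group in 20 where groups are independent, and these share their libraries. The RANKL+Dex library of batch 5 lay far above the other RANKL+Dex libraries in Ccna2 (30.09 CPM), Foxm1 (27.01 CPM), Plk1 (24.23 CPM), Ube2c (27.96 CPM), Kif2c (16.94 CPM), Nusap1 (9.537 CPM), Hmmr (15.76 CPM), Prc1 (22.63 CPM), Mki67 (141.2 CPM) and Smc2 (34.42 CPM), and among the other named genes in Cit (11.2 CPM), Aspm (17.53 CPM) and Tyms (10.78 CPM). The summed level of the 42 genes was also flagged in it, at 1163 CPM. Plk1 and Mki67 were the genes that led to leaving out batch 5, so their flags repeat that choice. The RANKL library of batch 5 lay far above the other RANKL libraries in Top2a (81.71 CPM), Cit (12.89 CPM), Mybl2 (17.76 CPM), Rrm2 (26.69 CPM) and Tk1 (30.74 CPM). All of these were high values in libraries that share a batch number. The B cell marker share in the RANKL+Dex library of batch 4 stood apart as well, at 5.653e-05% of counts. This value was near the floor and lay within the RANKL range of 2.26e-05% to 7.86e-05%. Of the 8 B cell markers, 3 were at 0 or not in the table, and Cd79a, the most abundant, averaged 0.183 CPM in RANKL+Dex.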

How the results depend on the processing

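The count of 13 lower genes was 10 in DESeq2, 13 with DESeq2's size factors, without the filter on low counts or with a filter of 1 CPM in 6 libraries, and 2 without the replicate block. It was 12, 6, 8, 8, 11 and 12 without batches 1 to 6, and ran from 6 to 12 without 1 library. Over all tested genes, 1535 were lower in the main fit, 1207 in DESeq2 and 1040 without the block. Without batches 1 to 6 these all-gene counts were 1787, 1076, 1203, 1174, 1220 and 1231. None of the 42 was higher in any of these fits. Top2a passed in 4 of the 23 alternatives and Aurkb in 1. Without batch 5, 9 of the 42 genes were lower with no block and 7 in DESeq2. No count over all tested genes is at hand for these fits, so whether they exceed the background share is not known. Batch differences were called for 1578 of the 28293 genes tested without the filter on low counts, against 828 of 13775 in the main fit. They were called for 508 of 13821 genes without batch 2 and for 299 of 13790 without batch 5. Of the 42 genes, 32 were called without the filter and 0 without batch 5, against 17 in the main fit. In unpaired exact permutation tests, 5 of 13 marker lists passed. The cause of these shifts was not tested.

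The sign of the log2 fold change turned under some alternatives for 14 genes, none of them past the threshold in any fit where it did so. Without 1 library the values ran from −0.0509 to 0.0402 for Cdk1, −0.116 to 0.0519 for Ttk, −0.0867 to 0.078 for Mad2l1, −0.141 to 0.103 for Ndc80, −0.159 to 0.0218 for Ect2, −0.0445 to 0.0834 for Cdc25c, −0.0728 to 0.0306 for Incenp, −0.023 to 0.0613 for Bub1b, −0.0577 to 0.0064 for Nusap1, −0.0386 to 0.0437 for Ccnb1, −0.0453 to 0.111 for Birc5, −0.0904 to 0.0715 for Spc24, −0.0277 to 0.0892 for Ccnb2 and −0.0389 to 0.0327 for Smc4. Without batch 1 they were 0.0385 for Cdk1, 0.0498 for Ttk, 0.0762 for Mad2l1, 0.101 for Ndc80 and 0.02 for Ect2. Without batch 2 they were −0.0417 for Cdc25c, 0.0041 for Incenp and −0.0178 for Bub1b. Without batch 3 they were 1e-04 for Incenp, 0.0103 for Mad2l1 and 0.0081 for Nusap1. Without batch 4 they were 0.0276 for Cdk1, 0.0278 for Incenp and 0.0384 for Ndc80. Without batch 5 they were −0.0257 for Ccnb1, −0.0295 for Birc5, −0.0224 for Bub1b and 0.0714 for Spc24. Without batch 6 they were −0.0383 for Ccnb1, −0.0274 for Ccnb2, −0.0313 for Cdc25c, −0.0451 for Birc5 and −0.0387 for Smc4.

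With 6 cultures a group, the half-width of the 95% interval was 0.10 to 0.31 on the log2 scale for these genes. Smaller changes could be missed, and the intervals were wide for low genes such as Ndc80 and Cdc25c. The intervals are not adjusted over genes, so somewhat larger changes could be missed too. Aurkb, with a 95% interval from −0.41 to −0.04, did not pass the threshold (edgeR adjusted p = 0.0719).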
